A study of Oryza sativa with 8 samples.

Results

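The genes described here move urea across membranes or break down purine rings for their nitrogen, measured in shoots of rice seedlings by microarray. They were listed by locus as the urea transporter DUR3 (Os10g0580400), the allantoinase ALN (Os04g0680400), a urate oxidase (Os01g0865100) and a urease (Os12g0234800). Every probe set annotated with exactly 1 of these loci was taken, which gave 4 probe sets for 3 of the 4 loci. Besides controls there were 57194 probe sets, of which 34860 were paired with exactly 1 locus, for 25727 loci. DUR3 and ALN had 1 probe set each and the urate oxidase had 2, while the urease had none under this rule and was not analysed here. The members were chosen from genes whose log2 difference between no and supplemented nitrogen on these arrays was already known, so their nitrogen differences are given as a description, without a test.

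The study compared the varieties Prasanna and Varadan, each without nitrogen and with supplemented nitrogen, on 2 arrays per group and 8 arrays in all. All seedlings germinated on moist filter paper and grew in Yoshida nutrient solution that contained nitrogen before they were split between the test media, so every group had been fed nitrogen first. The sources used here do not give the time spent in the test media or the form of the supplemented nitrogen. The tissue is labelled as the shoot of seedlings 14 days old, and nothing says whether replicates came from separate cultures, so p-values measure only the spread between these arrays.

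Plants break purines down in a fixed series of steps. Xanthine dehydrogenase makes urate, urate oxidase of the peroxisome opens the way to allantoin, and allantoinase hydrolyses allantoin to allantoate, after which further hydrolases free the remaining nitrogen as ammonium. Arginase releases urea from arginine, urease splits urea into ammonia and carbon dioxide with the help of accessory proteins, and DUR3 carries urea into cells together with protons. These routes are known for returning nitrogen from old molecules to new growth.

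The 4 leaf markers with a probe set, of 5 listed, had log2 signals of 14.7 to 17.3, and the 4 root markers had signals of 4.75 to 10.3. Median log2 signal ran from 5.59 to 6.26 over the arrays. Nitrate reductase NR1 (Os08g0468100), which is induced by nitrate, had log2 signals of 13.01 to 13.55 on the 4 arrays without nitrogen and 15.6 to 16.3 on the others. Among the no-nitrogen arrays, those with the same replicate number were more alike than replicates of a variety were. Across probe sets, the first arrays correlated with each other at a Spearman rho of 0.911 and the second arrays at 0.909. Replicates correlated at 0.896 in Prasanna and 0.886 in Varadan. These values do not tell which array of a variety is the odd one. Values without both first no-nitrogen arrays are given below for the results that moved most. The second arrays were not left out together.

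DUR3 signal was high on every array without nitrogen and low on every array with it. In Prasanna its linear MAS5 signal was 508 and 728 without nitrogen and 89.5 and 31.3 with supplemented nitrogen. In Varadan it was 431 and 912 without nitrogen and 10.7 and 9.01 with supplemented nitrogen. The no-nitrogen arrays of both varieties overlapped with each other and lay above all 4 supplemented arrays. On the log2 scale the no-nitrogen minus supplemented difference was 3.52 ± 0.64 in Prasanna (SE of the fit, n = 2 per group), which is an 11.5-fold ratio, and 6.0 ± 0.64 in Varadan, which is a 64.0-fold ratio.

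The size of the DUR3 difference in Varadan rests on dim signals. Both supplemented Varadan arrays, at 3.41 and 3.17 log2, lay under the filter level of 4.48, the 40th percentile of mean log2 signal. With signals under that level set to it, the difference in Varadan was 4.81. The DUR3 probe set is of the class whose probes can match several similar transcripts. In supplemented Prasanna the arrays were 1.52 log2 apart, a larger gap than that of 87.9% of tested probe sets in that group. Leaving out the first supplemented Prasanna array gave a Prasanna difference of 4.28, and leaving out the second gave 2.76.

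ALN signal was also higher on all 4 arrays without nitrogen than on all 4 with it. In Prasanna its linear signal was 3222 and 3233 without nitrogen and 342 and 365 with supplemented nitrogen. In Varadan it was 1010 and 3580 without nitrogen and 242 and 128 with supplemented nitrogen. The log2 difference was 3.19 ± 0.59 in Prasanna and 3.43 ± 0.59 in Varadan, ratios of 9.14-fold and 10.8-fold. The Prasanna no-nitrogen arrays differed by less than 0.01 log2, whereas the first Varadan no-nitrogen array lay 1.83 below the second.

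The size of the ALN difference in Varadan depended on that array. The ALN difference in Varadan was 4.34 without the first no-nitrogen Varadan array and 2.52 without the second. On the first array the summed signal of the leaf markers was 17.19 log2, the lowest of the 8 arrays, against 17.98 on the second. This sum was 17.19 to 17.98 on the no-nitrogen arrays and 18.26 to 18.98 on the supplemented ones, and that of the root markers 10.09 to 10.94 and 10.32 to 10.60, with none at 0. The part of these markers in the DUR3 and ALN values was not tested. In bulk shoots, fewer cells of a type and less RNA per cell cannot be told apart.

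The urate oxidase did not share this pattern. Its brighter probe set had linear signals of 858 and 514 without nitrogen and 842 and 750 with supplemented nitrogen in Prasanna. In Varadan they were 1348 and 813 without nitrogen and 579 and 624 with it. The groups overlapped in Prasanna and did not in Varadan, and the log2 differences were -0.26 ± 0.37 and 0.80 ± 0.37 in turn. The first no-nitrogen array was the brighter one in both varieties, by 0.74 and 0.73 log2. Without both first no-nitrogen arrays the average over the varieties, 0.27 ± 0.27, was -0.096, with -0.63 in Prasanna and 0.44 in Varadan.

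The dimmer urate oxidase probe set varied widely between replicates. Its log2 signals ran from 2.75 to 6.50, and replicates lay between 0.98 and 3.02 apart. Its mean of 4.52 was just above the filter level, and its nitrogen difference averaged -0.45 ± 1.04. Brighter and dimmer probe sets thus differed in sign for the average, the latter with an error larger than its value.

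**Figure D1:**
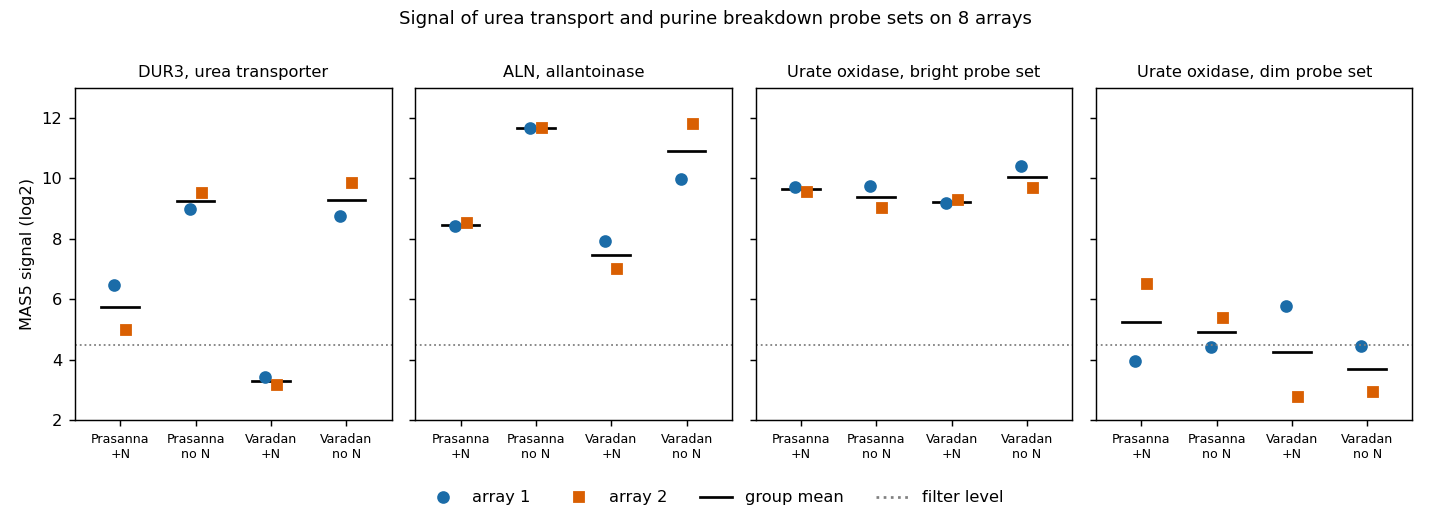
Log2 MAS5 signal of the 4 probe sets on each of the 8 arrays, by variety and nitrogen supply (+N, supplemented). Circles are first and squares second arrays, bars are group means and the dotted line is the filter level of 4.48; DUR3 and ALN separate by nitrogen in both varieties, the bright urate oxidase probe set in Varadan alone.

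Read against all probe sets, the member differences had these positions. Averaged over the varieties, DUR3 stood at 4.76 ± 0.45 and ranked 3 from the highest of 34333 tested probe sets, and ALN at 3.31 ± 0.42 ranked 25. With signals under the filter level set to it, the DUR3 average was 4.17, and the rank was not computed on that scale. The brighter urate oxidase probe set had a larger absolute difference than 35.0% of probe sets. With limma, 0.183% of probe sets passed an adjusted p of 0.05 for the average nitrogen effect, 0.0612% upward, and on 4.47% the no-nitrogen arrays lay above all supplemented ones, as they did for 2 of the 4 member probe sets. Nothing is read from these shares, since the members were chosen with this contrast known. Within Prasanna 17.8% and within Varadan 18.8% of probe sets had both no-nitrogen arrays above both supplemented ones, as 2 and 3 of the member probe sets did.

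The next comparison was between the varieties, which is separate from the average nitrogen difference. Earlier results of these data were known when the members were chosen. With supplemented nitrogen, DUR3 was lower on both Varadan arrays than on both Prasanna arrays. Its log2 difference, Varadan minus Prasanna, was -2.43 ± 0.64 and did not pass (limma adjusted p = 0.258). The 95% interval of the fit, -3.93 to -0.93, carries no adjustment for the number of probe sets. With signals under the filter level set to it, the difference was -1.24 and the adjusted p 0.667, and over all alternatives the adjusted p ran from 0.0938 to 0.753.

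ALN and the urate oxidase also had lower means in supplemented Varadan than in supplemented Prasanna, none past the threshold. The ALN difference was -1.0 ± 0.59 (adjusted p = 0.817, 95% interval -2.39 to 0.39). That of the brighter urate oxidase probe set was -0.40 ± 0.37 (adjusted p = 0.935, interval -1.28 to 0.48). The dimmer one stood at -0.97 ± 1.48 (adjusted p = 0.989). In 3 of the 4 member probe sets the arrays of the varieties did not overlap, each lower in Varadan, as in 20.5% of all probe sets. None of the 4 passed with limma, against 0.693% of all probe sets, and 1, DUR3, had an unadjusted p under 0.05, against 7.69%. On the log2 scale the 3' probe set of the control gene for glyceraldehyde-3-phosphate dehydrogenase exceeded its 5' probe set, a measure of RNA integrity, by 2.77 to 2.93 in Prasanna and 3.87 to 4.78 in Varadan, and the part of this in the variety differences was not tested. In the other 3 such control pairs the varieties overlapped: a second pair for the same enzyme gave -0.28 to 3.61 in Prasanna and -0.31 to 2.48 in Varadan, actin 3.84 to 5.11 and 4.34 to 5.01, and cyclophilin 0.74 to 1.48 and 1.0 to 1.62.

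Without nitrogen, no member passed between the varieties. DUR3 differed by 0.04 ± 0.64 (adjusted p = 1.0), with a 95% interval of -1.46 to 1.54 that leaves room for differences in either direction. ALN stood at -0.76 ± 0.59 (interval -2.15 to 0.63) and turned to 0.15 without both first no-nitrogen arrays. The brighter urate oxidase probe set stood at 0.66 ± 0.37 (interval -0.22 to 1.54) and the dimmer at -1.21 ± 1.48. The adjusted p was between 0.993 and 1.0 for all 4. None passed with limma, against 0.763% of all probe sets, and 0 had an unadjusted p under 0.05, against 6.36%. In none of the 4 were the arrays of the varieties apart, against 28.3% of all probe sets.

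The difference of the nitrogen effects, Varadan minus Prasanna, was largest in DUR3 among the members. It was 2.48 ± 0.90 log2 (interval 0.36 to 4.60), and 1.29 with signals under the filter level set to it. This did not pass (limma adjusted p = 1.0). It was 0.24 ± 0.84 in ALN (interval -1.73 to 2.21), 1.06 ± 0.53 in the brighter urate oxidase probe set (interval -0.18 to 2.31) and -0.24 ± 2.09 in the dimmer one. In ALN this difference was 1.15 without both first no-nitrogen arrays, and in the dimmer urate oxidase probe set -1.49, and neither passed. None of the 4 passed with limma and 1, DUR3, had an unadjusted p under 0.05. Of all 34333 probe sets 0% passed and 714, or 2.08%, had an unadjusted p under 0.05.

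**Figure D2:**
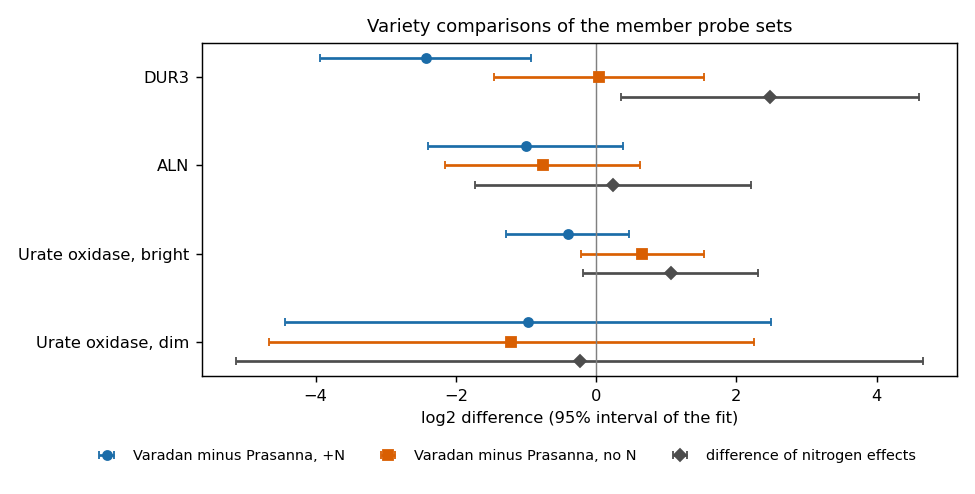
Log2 differences of the 4 member probe sets between the varieties with supplemented nitrogen and without nitrogen, and the difference of their nitrogen effects (Varadan minus Prasanna). Points are estimates and bars unadjusted 95% intervals of the fit; the DUR3 intervals of -3.93 to -0.93 with supplemented nitrogen and 0.36 to 4.60 for the difference of effects leave out 0, and none passed after adjustment.

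In order of level, DUR3 stood at 9.29 ± 0.76 log2 in Varadan without nitrogen (SD, n = 2) and at 9.25 ± 0.37 in Prasanna without nitrogen, which overlapped. Supplemented Prasanna followed at 5.73 ± 1.07 and supplemented Varadan at 3.29 ± 0.17. For ALN the order was Prasanna without nitrogen at 11.66 ± 0.003, Varadan without nitrogen at 10.89 ± 1.29, supplemented Prasanna at 8.46 ± 0.07 and supplemented Varadan at 7.46 ± 0.65. The upper pair overlapped and the lower pair did not. For the urate oxidase the order was Varadan without nitrogen at 10.03 ± 0.52, supplemented Prasanna at 9.63 ± 0.12, Prasanna without nitrogen at 9.37 ± 0.52 and supplemented Varadan at 9.23 ± 0.08. Its first 3 groups overlapped from neighbour to neighbour, and supplemented Varadan overlapped with Prasanna without nitrogen.

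The other genes of these routes were taken from a list of 13 loci, of which 9 carry a name in the annotation used here and all were tested. For the average nitrogen effect 0 of the 13 passed in either direction with limma, and 2 had an unadjusted p under 0.05, against 0.183% of probe sets that passed and 13.4% with an unadjusted p under 0.05. Of the 13, 5 were higher and 8 lower without nitrogen, with a median difference of -0.09 log2 against -0.03 over all probe sets. Within Prasanna 0 of the 13 passed and 3 had an unadjusted p under 0.05, against 0% and 6.63% of all probe sets. Within Varadan 0 passed and 1 had an unadjusted p under 0.05, against 0.00291% and 8.94%. In the difference of the nitrogen effects and in the variety comparisons 0 passed as well, where 2 had an unadjusted p under 0.05 in the difference, against 2.08% of all probe sets. Between varieties the unadjusted count was 0 with supplemented nitrogen, against 7.69%, and 1 without nitrogen, against 6.36%.

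Ahead of allantoin, no purine step passed. AMP deaminase AMPD, which starts the breakdown of adenine nucleotides, stood at -0.82 ± 0.32 in Prasanna and -0.14 ± 0.32 in Varadan. Xanthine dehydrogenase XDH stood at -0.64 ± 0.31 and 0.16 ± 0.31. The adjusted p of each for the average effect was 0.411 and 0.648.

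Behind allantoin, the allantoate amidohydrolase AAH, which acts on the product of ALN, had the highest average difference of the 9 named genes. Its log2 signals in Prasanna were 11.27 and 10.79 without nitrogen and 9.69 and 9.60 with it. In Varadan they were 9.69 and 10.84 without nitrogen and 9.55 and 9.37 with it. As for ALN, the first no-nitrogen Varadan array was the lower one, and it lay beside the supplemented arrays. The average difference was 1.09 ± 0.29 and did not pass (adjusted p = 0.200). It passed in no alternative that kept every array. Without the first no-nitrogen array of each variety the average difference was 1.26. That run leaves 1 array in each no-nitrogen group, so only the difference is given.

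The last hydrolases of the route did not pass. Ureidoglycine aminohydrolase UGLYAH stood at -0.27 ± 0.22 averaged over the varieties (adjusted p = 0.613), and its other probe set at -0.64. Ureidoglycolate amidohydrolase UAH, which frees the last ammonium, stood at -0.75 ± 0.34 in Prasanna and 0.54 ± 0.34 in Varadan. The difference between these, 1.30 ± 0.48, did not pass (adjusted p = 1.0).

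On the urea side, arginase ARG1 stood at -0.02 ± 0.27 averaged over the varieties (adjusted p = 0.986). Ornithine aminotransferase OAT, which takes up the ornithine that arginase leaves, stood at -0.09 ± 0.20 (adjusted p = 0.877). The urease accessory genes UREF and UREG, whose products help load nickel into urease, stood at 0.45 ± 0.23 (adjusted p = 0.435) and 0.20 ± 0.23 (adjusted p = 0.720). For UREF both no-nitrogen arrays were above both supplemented ones in each variety, as for AAH. This held for 17.8% of all probe sets in Prasanna and 18.8% in Varadan. In Prasanna UREG was apart upward as well, and AMPD, XDH, UAH and OAT were apart downward. The share of all probe sets apart downward is not given here, so nothing is read from the downward ones.

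**Figure D3:**
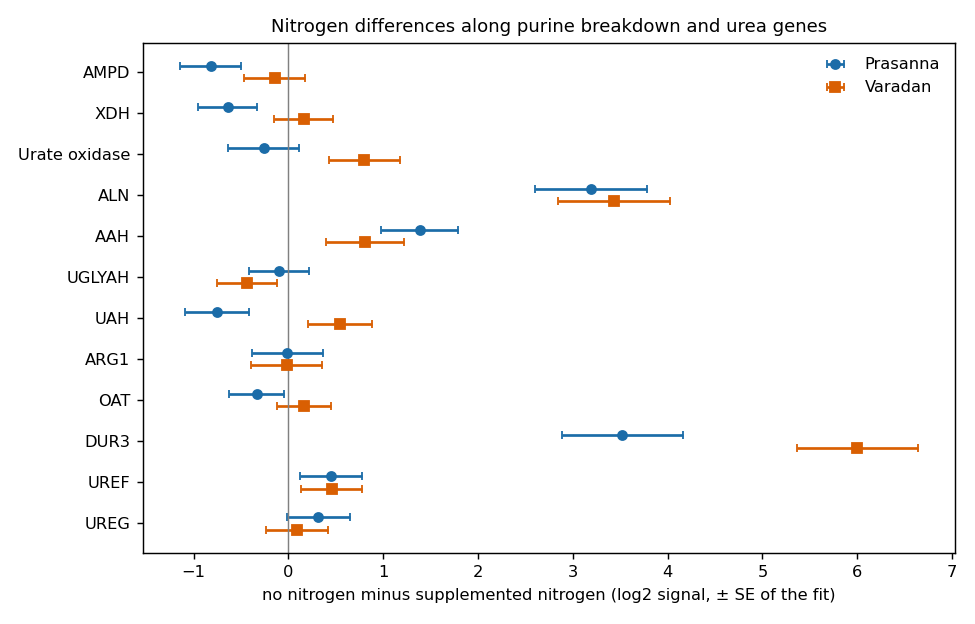
No-nitrogen minus supplemented log2 difference of 12 genes in Prasanna (circles) and Varadan (squares), with the SE of the fit, in the order of purine breakdown from AMPD to UAH and then arginine and urea genes. DUR3 and ALN lie above 3 in both varieties and AAH at 1.38 in Prasanna and 0.81 in Varadan. All others shown lie between -0.82 and 0.80. The urate oxidase is shown by its brighter probe set alone, and the dimmer one stood at -0.34 in Prasanna and -0.57 in Varadan. The unnamed loci of the list are not shown, among them Os12g0503000 at -10.5 in Prasanna and -3.94 in Varadan.

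One locus of the list without a name, Os12g0503000, had lower signals on the no-nitrogen than on the supplemented arrays, most so in Prasanna. Its log2 signals in Prasanna were 1.11 and -0.30 without nitrogen and 11.01 and 10.80 with it. In Varadan they were 9.46 and 4.82 without nitrogen and 10.57 and 11.58 with it. All no-nitrogen arrays were below all supplemented ones, and the Prasanna no-nitrogen signals lay under the filter level. The average difference was -7.22 ± 0.95 and missed the threshold (adjusted p = 0.0511). It was -5.18 (adjusted p = 0.0755) with signals under the filter level set to it, so its size is not well measured. With all 8 arrays kept, this average difference passed with limma under array weights (adjusted p = 0.0310), a replicate block (0.0359) and no filter (0.0369). It also passed narrowly after a shift of arrays to one median (0.0487) and after quantile normalization (0.0491). Without a trend in the variance prior it did not pass (0.136), nor with the floor above, so the call depends on the processing. Leaving out 1 array in turn moved the average difference between -8.38 and -6.06. Such runs leave 1 array in a group, so only the difference is given. The other probe set of Os12g0503000, which was dimmer at a mean of 5.14 log2, stood at -2.52. Between the varieties without nitrogen, Varadan minus Prasanna, its main probe set stood at 6.73 ± 1.35 (adjusted p = 0.107), and at 2.66 (adjusted p = 0.841) with signals under the filter level set to it. The Varadan arrays were 4.64 apart, and leaving out the first gave 4.41 and the second 9.05, each with 1 Varadan array left. This variety difference passed in no alternative that kept 2 arrays in each group.

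Of the other 3 unnamed loci of the list, Os12g0502800 stood at 0.31 ± 0.45, Os02g0173000 at 0.09 ± 0.34 and Os05g0349200 at -0.52 ± 0.28. Os12g0502800 was lower on the first no-nitrogen array in both varieties, by 1.45 and 1.69 log2. Without both of these arrays, which leaves 1 array in each no-nitrogen group, it stood at 1.09. It passed in no alternative that kept 2 arrays in each group.

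Finally, the loci whose signals ran closest to those of ALN and DUR3 were found among 21510 tested loci, by the root mean square difference of log2 values over the 8 arrays after each probe set was centred on its mean. For ALN the closest was Os02g0575700, at 0.22 log2. Its log2 signals were 12.67 and 13.18 without nitrogen against 9.87 and 10.21 in Prasanna, and 11.61 and 12.97 against 9.12 and 8.47 in Varadan. Like ALN it was lower on the first than on the second no-nitrogen Varadan array. Os01g0717700 (0.44), Os12g0145100 (0.49), Os10g0320100 (0.56) and Os03g0806600 (0.57) followed.

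By this distance, which grows with the size of the differences, DUR3 had no locus as close. Its nearest was again Os02g0575700, at 1.04, and ALN was second at 1.05, followed by Os10g0550500 (1.05), Os03g0806600 (1.12) and Os01g0717700 (1.17). The nitrogen differences of these 5 loci were 2.32 to 3.19 in Prasanna and 3.16 to 4.21 in Varadan, below those of DUR3 in each variety. Their Pearson correlations with DUR3 over the 8 arrays were 0.929 to 0.983, against 0.952 to 0.993 for the 5 loci closest to ALN. None of these loci other than ALN carries a name in the annotation used here, and closeness over arrays that share libraries and scaling is a description only.

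**Figure D4:**
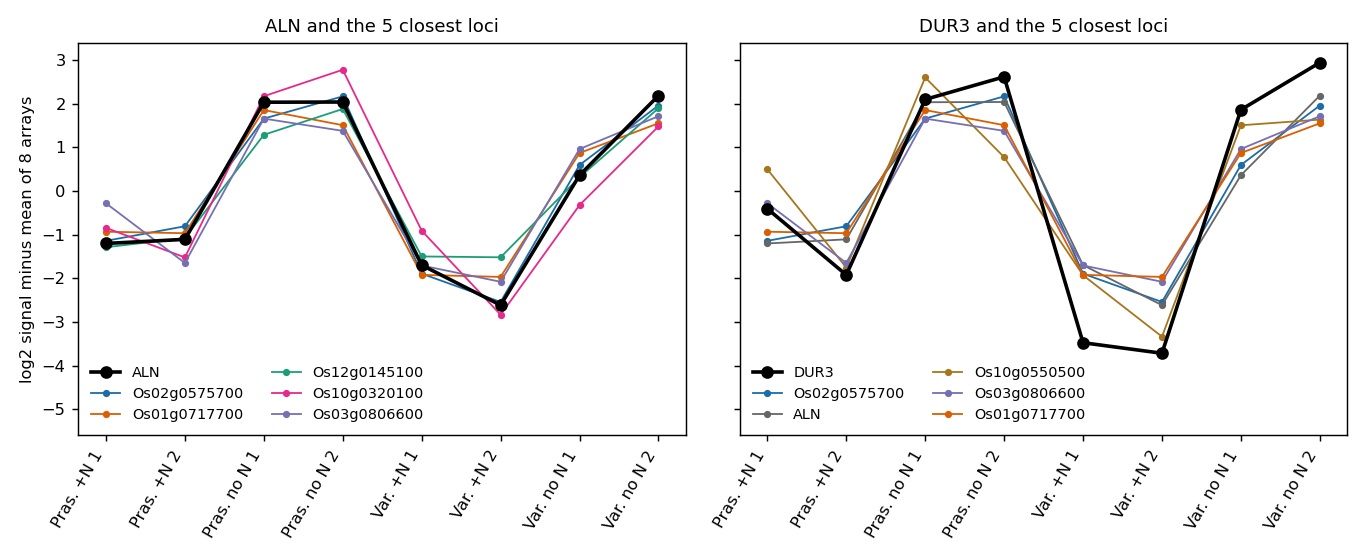
Log2 signal minus the mean of the 8 arrays for ALN and DUR3 (black) and their 5 closest loci, array by array (Pras., Prasanna; Var., Varadan; +N, supplemented nitrogen); lines only link the points of a locus. All loci shown are higher on the no-nitrogen arrays of a variety than on its supplemented ones, and DUR3 reaches lowest in supplemented Varadan.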

How the data were processed

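MAS5, named in the submitters' processing notes without a version, made the deposited signals. Per the file headers, 57381 probe sets are held as log2 values in one deposited table. A second deposited table holds the same signals as linear intensity values, whose log2 differed by at most 2.96e-08. On each array the linear mean after trimming 2% at each end was 500.0, so shared shifts are scaled away. MAS5 subtracts mismatch signals, which widens the spread of dim probe sets.

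After 187 control probe sets were left out, a filter at the 40th percentile of mean log2 signal (4.48) kept 34333 probe sets, which were tested with limma 3.58.1 in R 4.3.3 (1 mean per group, eBayes with trend, 4 residual degrees of freedom, Benjamini-Hochberg over all). Precision is limited by the number of arrays. The code of the fit was run on simulated data with equal spread in every group. On these arrays the median replicate SD of the groups ran from 0.26 to 0.47, so that run checks the code only. Members and lists were chosen with earlier results of these data known. Pathway genes were listed by locus, with 1 probe set each (highest mean), and UREF and UREG added later by synonym in a RefSeq table (ASM3414082v1), the source of gene names. Named besides were NR1 and the 5 loci closest to DUR3 and to ALN. Promoter motifs and sequences were not analysed here. Alternatives covered filter, floor, scaling, variance prior, weights and arrays; where one leaves 1 array in a group, that array is assumed to vary like the other groups.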

Additional observations from a re-analysis of the deposited data

How the results depend on the processing

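Of the 12 tested member results none passed under any alternative run (191 values), and 11 of those values changed sign. Of 183 values of the 12 nitrogen differences, 171 moved by less than the residual SD, 7 by more and 5 changed sign. The direction of the DUR3 and ALN nitrogen differences held under every alternative. Leaving out 1 array in turn gave DUR3 in Prasanna 2.76 to 4.28, ALN in Varadan 2.52 to 4.34, and the urate oxidase in Prasanna -0.63 to 0.11. It gave the DUR3 and ALN variety differences without nitrogen -0.50 to 0.58 and -1.68 to 0.15, and the difference of effects of ALN -0.67 to 1.15. For the dimmer urate oxidase probe set it gave -1.60 to 0.16 and -2.08 to 0.19 for nitrogen in Prasanna and Varadan, -1.75 to 1.03 for their difference and -2.24 to 0.54 for variety with supplemented nitrogen. Without both first no-nitrogen arrays, ALN in Varadan was 4.34, ALN between varieties without nitrogen 0.15, the urate oxidase average -0.096 and the dimmer probe set in Prasanna 0.16. The floor gave DUR3 in Varadan 4.81 and its average over the varieties 4.17. A shift of arrays to one median moved the median nitrogen difference of all probe sets from -0.03 to 0.29, gave the urate oxidase in Varadan 1.25 and the difference of effects of the dimmer probe set 0.018, which quantile normalization put at 0.058. The dimmer probe set fell under the filter in 3 alternatives.

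Counts of probe sets past the threshold moved more. For the average nitrogen effect, 63 became 1 without a trend in the variance prior, 120 with array weights, 1159 without both first no-nitrogen arrays and 0 to 84 without 1 array. Within Prasanna 0 became 1 with the floor, 272 without both first arrays and 0 to 5 without 1 array. Within Varadan 1 became 3 after the median shift, 0 without a trend, 359 without both first arrays and 0 to 1 without 1 array. Between varieties with supplemented nitrogen 238 became 409 with the floor, 572 with array weights, 718 without both first no-nitrogen arrays, 834 in a fit of the 4 arrays alone and 42 to 277 without 1 array. Without nitrogen 262 became 418, 155 with array weights, 0 in a fit of the 4 arrays alone and 155 to 194. The cause was not tested. Replicate numbers were not taken to pair the arrays: first-replicate deviations correlated between groups at -0.04 to 0.46, and at 0.46 between the no-nitrogen groups. With a replicate block the average nitrogen effect had 150 probe sets past the threshold, Os12g0503000 among them, and no member call changed.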
